A study of Mus musculus with 12 samples.

Results

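Mitosis and spindle genes were followed as a list of 43 genes: the cyclins, CDK1 and CDC25 phosphatases of mitotic entry, the mitotic kinases, the spindle checkpoint, centromere and kinetochore proteins, mitotic kinesins, the chromosomal passenger complex, the machinery of anaphase and cytokinesis, and 3 general marks of cycling cells. Members were taken from the deposited table by gene name, and all 43 were found among its 45706 genes. The cells were BN1-Tie2-EGFP, a murine hepatoblastoma (HB) cell line from an FVB/N liver tumor driven by mutant β-catenin and mutant NRF2, in which Cdkn2a had been targeted by Crispr. Every group carried these alterations, together with a stably transfected EGFP reporter driven by the Tie2/Tek promoter, so no group represents cells with an intact Cdkn2a locus. UN cells were unsorted and grown in 21% oxygen, and UH cells were the unsorted cells kept in 1% oxygen for 2 days. For SN, the EGFP+ fraction was sorted after 2 days of hypoxia and grown in normoxia for about 10 days. SH is that sorted population after another 2 days in 1% oxygen. Each group had 3 libraries, which the labels call replicas without saying whether they came from separate cultures, so p-values measure the spread between these libraries only. SN and SH both derive from sorted cells, and sorting, previous hypoxia and expansion cannot be told apart in this design.

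Progression into mitosis is set by cyclin B bound to CDK1, which CDC25 phosphatases switch on and which is destroyed when CDC20 activates the anaphase-promoting complex. Kinetochores tie centromeres to spindle microtubules, the checkpoint proteins MAD2, BUB1, BUBR1 and BUB3 hold anaphase back until all chromosomes are attached, and separase then cuts the cohesin that holds sister chromatids together. Transcripts of most of these genes are absent or low in resting cells and accumulate in the G2 and M phases, under the transcription factors FOXM1 and B-MYB and the MuvB complex, which binds a promoter element called the CHR. In bulk RNA, fewer cells in G2 and M and less transcript per cell cannot be told apart.

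Values were TPM (transcripts per 1000000), which are corrected for transcript length and sum to 1000000 in each library. Depth cannot be read from TPM, so precision is given by the spread over 3 libraries. The targeted gene Cdkn2a was listed at 196 to 327 TPM in UN cells, 66.4 to 78.7 TPM in UH cells, 10.4 to 16.5 TPM in SN cells and 7.37 to 9.32 TPM in SH cells, and transcript level does not show whether its coding sequence was edited. Tek was between 0.0853 and 0.226 TPM in the 6 unsorted libraries and between 2.07 and 3.29 TPM in the 6 sorted libraries. Among 12 endothelial markers, 6 (Pecam1, Cdh5, Kdr, Tie1, Emcn and Cldn5) were under 1 TPM in all 12 libraries. The 12 summed to 11.7 to 46.8 TPM in UN, 55.5 to 71.3 TPM in UH, 8.08 to 9.47 TPM in SN and 21.7 to 29.9 TPM in SH cells. Of 8 tested in SN vs UN, Tek had the highest log2 fold change (1.62) and Eng the lowest (−2.90, and −2.19 without UN1). The summed level of 10 fibroblast and mural markers was 1177 to 5165 TPM in UN, 4854 to 7136 TPM in UH, 205 to 214 TPM in SN and 53.7 to 71.1 TPM in SH cells. The 8 immune markers summed to 5.30 to 10.1 TPM in UN, 21.6 to 22.8 TPM in UH, 9.91 to 14.7 TPM in SN and 59.5 to 63.5 TPM in SH cells. Of these, Ptprc, Adgre1, Cd3e, Cd79a and Itgam were under 1 TPM throughout. The 12 hepatocyte and hepatoblast markers summed to 124 to 247 TPM over all groups, with Ttr and Apoa1 under 1 TPM throughout. Mitochondrially encoded transcripts took 6.10 ± 1.27% of TPM in UN, 2.11 ± 0.433% in UH, 8.10 ± 0.397% in SN and 3.43 ± 1.10% in SH cells (SD, n = 3). The part of these shifts in the results was not tested. Library UN1 stood apart from UN2 and UN3 (Pearson's r across genes at most 0.978, against 0.990 between the others), and SH3 stood apart less (at most 0.985, against 0.989). For this reason, many but not all results that rest on these libraries are also given without them, for the members and the gene lists set beside them.

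In normoxia the members were well expressed in both populations. Averaged over the 43 genes, log2(TPM + 1) came to 5.66 ± 0.057 for UN, 3.73 ± 0.17 for UH, 5.71 ± 0.13 for SN and 5.26 ± 0.089 for SH (mean ± SD, n = 3 libraries each). Their TPM summed to 2785 to 2963 in the UN libraries, 671 to 801 in UH, 2685 to 3278 in SN and 1972 to 2208 in SH, and the UH libraries lay below every other library. Per length, Cdk1 had the highest level of all members in UN cells, 236 ± 44.6 TPM (SD, n = 3), followed by Birc5 (survivin, the adaptor of the passenger complex) at 208 ± 7.71 TPM (SD, n = 3) and Top2a (topoisomerase IIα, which untangles sister chromatids) at 199 ± 31.3 TPM (SD, n = 3). The spreads of these 3 genes overlapped. The lowest level was that of Kif14, a kinesin of the midbody, at 5.17 ± 0.872 TPM (SD, n = 3). The 43 genes were spread over 16 chromosomes in GRCm38, with the most, 7 genes, on chromosome 2.

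**Figure D1:**
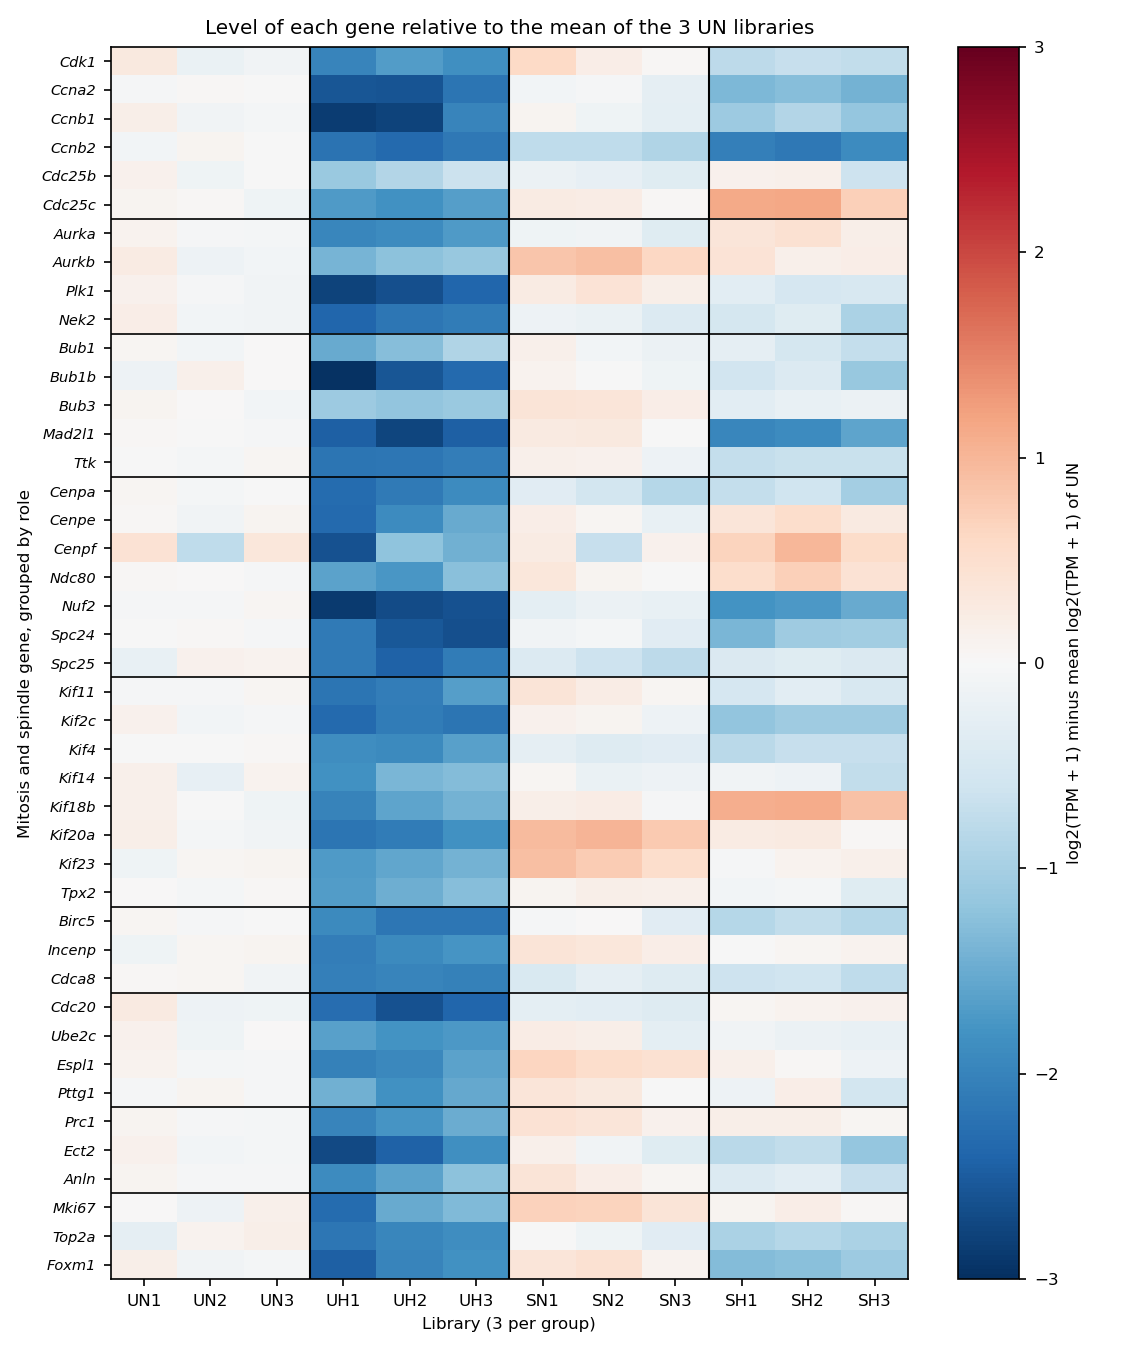
Heat map of the 43 members (rows, grouped by role between black lines) in the 12 libraries (columns, 3 per group), with color giving log2(TPM + 1) minus the mean of the 3 UN libraries. All members are below the UN mean in the UH libraries, whereas in the SH libraries Cdc25c and Kif18b lie above it and Ccnb2, Mad2l1 and Nuf2 lie well below it.

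Nearly the whole list was lower in unsorted cells after hypoxia. In UH vs UN, 42 of 43 members fell and 0 rose at a Benjamini-Hochberg adjusted p under 0.05 (limma) and a fold difference above 2, where over all 18909 genes tested 11.8% were called lower and 5.46% higher. The members' median log2 fold change was −1.92, and that of all genes was −0.19. The median member was at 23.4% of its UN level, with a range from 13.8% for Nuf2 to 53.1% for Cdc25b. In all 43 genes the 3 UH libraries lay below the 3 UN libraries without overlap, which was so for 36.2% of all genes. The summed fibroblast and mural markers of UN1, at 5165 TPM, lay within the UH range of 4854 to 7136 TPM, and of 9 markers tested 3 were called higher and 3 lower in UH vs UN, with a median of 0.05. Without UN1, 3 of these markers were called higher and 1 lower, with a median of 0.33. Their part in these values was not tested. Without UN1, 42 members were again lower, with a median of −1.96.

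Of the 6 genes of mitotic entry, 5 fell in UH cells. Cdk1, the kinase that drives mitosis, was at 287, 203 and 218 TPM in UN1 to UN3 and at 58.1, 72.7 and 64.4 TPM in UH1 to UH3. UN1 was the highest of the UN libraries, and the lowest UN value was over 2 times the highest UH value (log2 fold change −1.83 with a standard error of 0.16, adjusted p = 3.00e-06, limma). Ccnb1, the cyclin B1 partner of CDK1, was at 59.3, 48.6 and 51.0 TPM in UN and 6.48, 6.80 and 12.7 TPM in UH cells. UH3 was higher than UH1 and UH2 but stayed far below all UN libraries (log2 fold change −2.53 with a standard error of 0.21, adjusted p = 2.11e-06, limma). Ccna2 (cyclin A2) and Ccnb2 (cyclin B2) fell by 2.45 and 2.23 on the log2 scale. Cdc25b, a phosphatase that starts CDK1 activation, was the 1 member that missed the fold threshold, with 32.7, 27.1 and 29.3 TPM in UN and 13.1, 15.6 and 18.6 TPM in UH cells (log2 fold change −0.88, adjusted p = 0.00277, limma).

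All 4 mitotic kinases fell. Plk1, polo-like kinase 1, went from 93.3, 83.2 and 79.7 TPM to 11.5, 12.8 and 15.6 TPM, a wide gap with no overlap (log2 fold change −2.60 with a standard error of 0.12, adjusted p = 3.82e-08, limma). Nek2, a kinase of centrosome separation, and Aurka, the spindle pole kinase Aurora A, had log2 fold changes of −2.21 and −1.85. The smallest change among the kinases was that of Aurkb, the kinase of the passenger complex, at −1.25.

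The 5 checkpoint genes fell unequally. Bub1b, which encodes BUBR1, was at 62.9, 77.9 and 70.7 TPM in UN and 8.08, 10.9 and 13.2 TPM in UH cells (log2 fold change −2.62 with a standard error of 0.19, adjusted p = 1.05e-06, limma). Mad2l1 (MAD2) and Ttk (the kinase MPS1) had log2 fold changes of −2.55 and −2.14. Bub3, which brings BUB1 and BUBR1 to kinetochores, was at 108, 103 and 96.4 TPM in UN and 47.6, 44.9 and 47.2 TPM in UH cells, so the groups were tight and apart but the change was only −1.12 (adjusted p = 1.20e-06, limma). Bub1 was at −1.23.

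Among 7 centromere and kinetochore genes, all of which fell, 4 encode the NDC80 complex that grips microtubules. Nuf2 had the largest change of all members, from 59.7, 59.6 and 62.8 TPM to 7.42, 8.68 and 9.01 TPM (log2 fold change −2.72 with a standard error of 0.11, adjusted p = 1.43e-08, limma). The other subunits Spc24, Spc25 and Ndc80 were at −2.43, −2.21 and −1.54. The centromeric histone Cenpa was at −2.10 and the kinetochore motor Cenpe at −1.91. Cenpf, a large kinetochore protein, varied most within groups, with 23.5, 9.77 and 22.0 TPM in UN and 1.99, 6.87 and 5.76 TPM in UH cells. UN2 came close to the UH libraries, and the standard error of its log2 fold change of −1.75 was 0.40 (adjusted p = 0.00355, limma).

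All 8 kinesin and spindle assembly genes fell, from −2.20 for Kif2c, which takes microtubule ends apart, to −1.47 for Tpx2, the activator of Aurora A. The 3 passenger complex genes Birc5, Cdca8 (borealin) and Incenp lay close together at −2.08, −2.02 and −1.92. Among genes of anaphase, Cdc20 went from 61.7, 45.9 and 47.0 TPM to 9.70, 7.52 and 8.98 TPM, without overlap (log2 fold change −2.43 with a standard error of 0.13, adjusted p = 7.41e-08, limma). Separase (Espl1), the ubiquitin-conjugating enzyme Ube2c and securin (Pttg1) were at −1.85, −1.72 and −1.60. For cytokinesis, Ect2, which activates RhoA at the cell equator, was at −2.33, Prc1, which bundles midzone microtubules, at −1.75 and anillin (Anln) at −1.57.

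The marks of cycling cells moved likewise. Mki67, the Ki-67 antigen, was at 49.2, 43.6 and 54.3 TPM in UN and 9.01, 16.5 and 19.0 TPM in UH cells (log2 fold change −1.71 with a standard error of 0.21, adjusted p = 4.80e-05, limma). Top2a went from 163, 211 and 221 TPM to 42.9, 49.8 and 53.6 TPM (log2 fold change −1.995 with a standard error of 0.13, adjusted p = 4.92e-07, limma). Foxm1, the transcription factor of G2 and M genes, went from 78.7, 64.3 and 66.5 TPM to 12.02, 16.9 and 19.2 TPM (log2 fold change −2.07 with a standard error of 0.16, adjusted p = 1.41e-06, limma). In each of the 3 genes UH1 was the lowest library, and none of the groups overlapped.

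**Figure D2:**
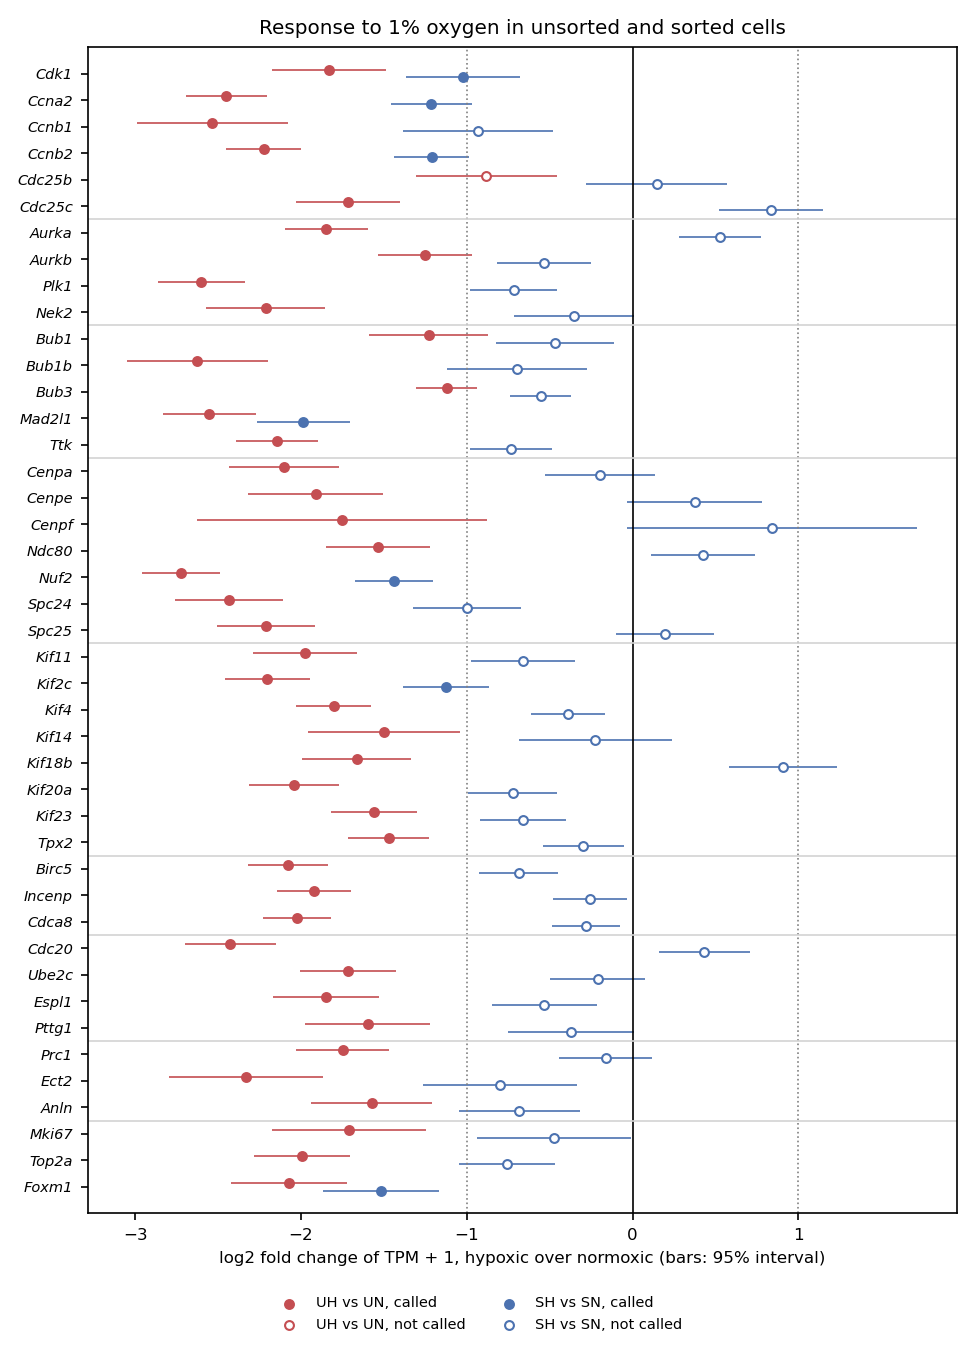
Log2 fold changes of the 43 members after 2 days in 1% oxygen in unsorted (UH vs UN, red) and sorted cells (SH vs SN, blue), with 95% intervals from the limma fit and the fold threshold as dotted lines. Filled points are called genes: 42 in UH vs UN, where only Cdc25b is open, and 7 in SH vs SN, where 9 genes lie to the right of 0.

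In sorted cells the same oxygen level left most members within a factor of 2 of their normoxic level. In SH vs SN, 7 of 43 members (16.3%) fell and 0 rose, where over all genes 5.0% were called lower and 7.47% higher. The median log2 fold change of the members was −0.53, and that of all genes was 0.03. With no fold threshold, 25 members were lower and 5 higher at an adjusted p under 0.05 (limma), where 19.5% of all genes were lower and 21.5% higher. The 3 SH libraries lay below all SN libraries in 28 members and above them in 7, where all genes gave 27.1% and 29.7%. The median member was at 68.5% of its SN level, from 24.7% for Mad2l1 to 190% for Kif18b. Without SH3, the 7 called genes remained and Spc24 joined them, with a median of −0.45 over the members. The fibroblast and mural markers summed to less in SH than in SN libraries, with 1 called higher and 3 lower of 9, and their part in these values was not tested.

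The 7 genes that fell in SH cells came from 5 of the 9 role groups. Mad2l1 was at 124, 126 and 102 TPM in SN and 26.0, 27.2 and 33.8 TPM in SH cells, with no overlap and SH3 the highest of its group (log2 fold change −1.99 with a standard error of 0.13, adjusted p = 7.17e-07, limma). Foxm1 was at 89.1, 95.8 and 74.6 TPM in SN and 27.7, 28.4 and 32.2 TPM in SH cells (log2 fold change −1.52 with a standard error of 0.16, adjusted p = 2.37e-05, limma). Nuf2 was at 49.0, 53.3 and 51.7 TPM in SN and 16.7, 17.6 and 20.8 TPM in SH cells (log2 fold change −1.44 with a standard error of 0.11, adjusted p = 2.05e-06, limma). Every SH library was below every SN library in each of these genes.

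The 4 remaining called genes were Ccna2, Ccnb2, Kif2c and Cdk1. Ccnb2 went from 35.4, 35.2 and 32.0 TPM to 13.9, 13.0 and 15.7 TPM (log2 fold change −1.21 with a standard error of 0.10, adjusted p = 5.01e-06, limma), and Ccna2 and Kif2c had log2 fold changes of −1.21 and −1.12. Cdk1 was at 354, 269 and 241 TPM in SN and 135, 143 and 140 TPM in SH cells. The SN libraries were spread widely and the SH libraries were not, and Cdk1 was just past the fold threshold (log2 fold change −1.02 with a standard error of 0.16, adjusted p = 0.000323, limma), but short of it without SN1 (−0.86) and after quantile normalization (−0.90). Spc24, at −0.999, and Ccnb1, at −0.93 (56.3, 48.0 and 42.9 TPM in SN, 24.5, 28.2 and 22.9 TPM in SH), were just short of it.

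Against the direction of most members, 9 genes had a log2 fold change above 0 in SH vs SN, none past the fold threshold. Over all 18909 genes tested, 9961 were above 0. Kif18b, a kinesin that trims astral microtubules, was at 32.0, 33 and 27.5 TPM in SN and 61.1, 61.8 and 52.9 TPM in SH cells, with all SH libraries above all SN libraries (log2 fold change 0.91 with a standard error of 0.15, adjusted p = 0.000524, limma). Cdc25c, the phosphatase of full mitotic commitment, was at 12.8, 12.7 and 11.1 TPM in SN and 24.7, 25.2 and 18.2 TPM in SH cells, again without overlap (log2 fold change 0.83 with a standard error of 0.14, adjusted p = 0.000705, limma). Aurka was at 64.6, 65.6 and 54.6 TPM in SN and 91.0, 97.5 and 79.3 TPM in SH cells (log2 fold change 0.53 with a standard error of 0.11, adjusted p = 0.00310, limma).

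Cdc20 had 41.2, 41.1 and 38.5 TPM in SN and 53.3, 54.6 and 56.2 TPM in SH cells (log2 fold change 0.43 with a standard error of 0.13, adjusted p = 0.0160, limma). Ndc80 was at 0.42 (adjusted p = 0.0340, limma), so within its complex Nuf2 fell while Ndc80 was above its normoxic level in every SH library. Cenpf (0.84), Cenpe (0.37), Spc25 (0.19) and Cdc25b (0.14) did not pass the adjusted p (limma). Cenpf was at 20.7, 10.3 and 19.0 TPM in SN and 28.1, 35.2 and 25.8 TPM in SH cells, a wide spread although the groups did not overlap. Kif18b, Cdc25c and Aurka were lower in SH3 than in SH1 and SH2, and Cdc25b more so, with 32.5, 32.8 and 19.1 TPM.

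Top2a, Bub3 and Mki67 lay between these extremes in SH vs SN. Top2a went from 196, 179 and 155 TPM to 101, 109 and 101 TPM (log2 fold change −0.76, adjusted p = 0.000792, limma) and Bub3 from 133, 132 and 118 TPM to 82.1, 86.9 and 90.7 TPM (log2 fold change −0.55, adjusted p = 0.000304, limma). Mki67 was at 79.0, 78.7 and 63.7 TPM in SN and 51.9, 56.3 and 49.9 TPM in SH cells, without overlap but short of the adjusted threshold (log2 fold change −0.47, adjusted p = 0.0976, limma). The 3 passenger complex genes were at −0.69 (Birc5), −0.28 (Cdca8) and −0.26 (Incenp), and the 3 cytokinesis genes at −0.80 (Ect2), −0.68 (Anln) and −0.16 (Prc1).

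**Figure D3:**
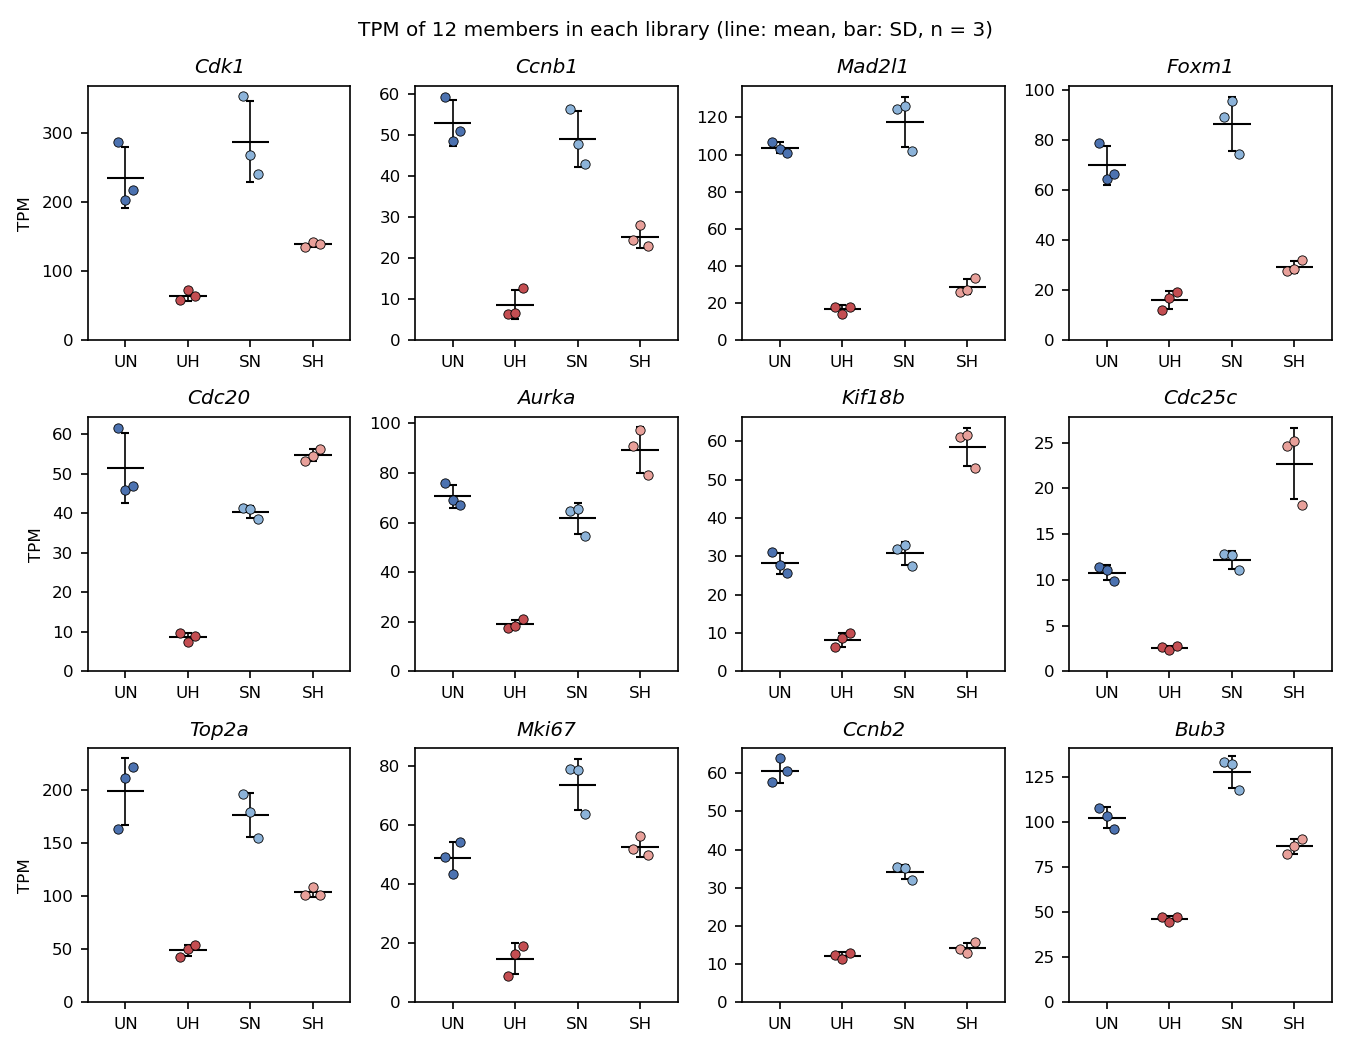
TPM of 12 members in each library (points), with the mean (line) and SD (bar, n = 3) of each group and all axes starting at 0. Cdk1, Ccnb1, Mad2l1 and Foxm1 are lower in both hypoxic groups, whereas Cdc20, Aurka, Kif18b and Cdc25c are low in UH and at or above the normoxic level in SH.

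Whether the response to hypoxia differed between sorted and unsorted cells was tested directly as the contrast (SH − SN) − (UH − UN), which shares its libraries with both hypoxia comparisons. The difference was positive in all 43 members and called in 35 of them (limma, adjusted p under 0.05 and log2 difference above 1), with 0 called in the other direction. Its sign was positive in 13271 of all 18909 genes. Over all genes 8.08% were called positive and 2.18% negative, and the medians were 1.39 for the members and 0.25 for all genes. The values were greatest for Cdc20 (log2 difference 2.86 with a standard error of 0.18, adjusted p = 3.61e-06, limma), Cenpf (2.59, standard error 0.57), Kif18b (2.57, standard error 0.21), Cdc25c (2.55, standard error 0.20), Spc25 (2.40, standard error 0.19) and Aurka (2.37, standard error 0.16). All 7 centromere and kinetochore genes, all 4 anaphase genes and all 3 passenger complex genes were called.

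The 8 members that were not called were Kif23, Anln, Cdk1, Bub1, Aurkb, Mad2l1, Bub3 and Foxm1, with log2 differences from 0.90 down to 0.56. For Foxm1 the difference was 0.56 (95% interval 0.06 to 1.05, adjusted p = 0.0991, limma). For Mad2l1 it was 0.57 (95% interval 0.17 to 0.97, adjusted p = 0.0438, limma) and for Bub3 0.57 (95% interval 0.31 to 0.83, adjusted p = 0.00669, limma). Mad2l1 and Foxm1 were thus among the members whose fall in sorted cells came nearest to that in unsorted cells. Without UN1, 34 members were called, with a median of 1.37, and without SH3, 35 with a median of 1.40.

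In normoxia, no member passed both thresholds between sorted and unsorted cells. In SN vs UN, 0 members were called in either direction, where 3.2% of all genes were called higher and 7.57% lower (limma). The members' median log2 fold change was 0.02, with 23 members above 0, where 8181 of all 18909 genes were. Without any fold threshold 6 members were higher and 5 lower at an adjusted p under 0.05 (limma), where 13.0% of all genes were higher and 20.9% lower. At an unadjusted p under 0.05 these were 9 and 7 members, and 16.7% and 25.9% of all genes. After median-of-ratios scaling, 12 members were higher and 3 lower at an adjusted p under 0.05, against 17.7% and 18.1% of all genes. Without UN1, 0 members were called and the median was 0.08. Kif20a, a kinesin of the central spindle, differed most, with 79.0, 67.7 and 64.7 TPM in UN and 137, 143 and 121 TPM in SN cells (log2 fold change 0.92 with a standard error of 0.12, adjusted p = 0.000178, limma). Aurkb (0.79), the central spindle kinesin Kif23 (0.73), Espl1 (0.54), Incenp (0.31) and Bub3 (0.31) were also higher at an adjusted p under 0.05. In the other direction, Ccnb2 was at 57.6, 64.0 and 60.6 TPM in UN and 35.4, 35.2 and 32.0 TPM in SN cells (log2 fold change −0.81 with a standard error of 0.10, adjusted p = 0.000119, limma). Spc25, Cenpa, Cdca8 and Kif4 were at −0.60, −0.58, −0.38 and −0.34, and Cdca8 and Kif4 no longer passed the adjusted p after scaling (0.0705 and 0.104, limma). Mki67 was above all UN libraries in all SN libraries, at a log2 fold change of 0.58 (adjusted p = 0.0543, limma), and at 0.70 after scaling (adjusted p = 0.00880, limma). The levels of Cdk1, Ccnb1, Top2a and Foxm1 overlapped between the groups.

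In hypoxia, most members were higher in sorted than in unsorted cells. In SH vs UH, 37 of 43 were called higher and 0 lower, where over all genes 7.65% were called higher and 5.35% lower (limma). The median log2 fold change was 1.46 in the members and 0.17 in all genes, and in 42 members all SH libraries lay above all UH libraries, which was so for 34.5% of all genes. This comparison shares the UH libraries with UH vs UN and the SH libraries with SH vs SN. Cdc25c differed most, with 2.65, 2.35 and 2.73 TPM in UH and 24.7, 25.2 and 18.2 TPM in SH cells (log2 fold change 2.72 with a standard error of 0.14, adjusted p = 9.49e-08, limma). It was followed by Kif18b (2.69), Cdc20 (2.52), Cenpf (2.49) and Cenpe (2.30). The 6 that were not called were Bub3 (0.88), Foxm1 (0.86), Cdc25b (0.77), Mad2l1 (0.74), Bub1 (0.73) and Ccnb2. Ccnb2 was the exception to the pattern, with 12.3, 11.2 and 13.1 TPM in UH and 13.9, 13.0 and 15.7 TPM in SH cells, which overlapped (log2 fold change 0.20, 95% interval −0.02 to 0.43, adjusted p = 0.135, limma). Without SH3, 37 members were called, with a median of 1.55.

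All comparisons were repeated with another scaling between libraries. Median-of-ratios scaling, which sets the typical gene equal between libraries, divided the UH libraries by factors of 0.781 to 0.962 and the UN libraries by 1.06 to 1.16, and moved the median of all genes in UH vs UN from −0.19 to 0.00. Relative to the median of all genes, the members' median was −1.73 with TPM as deposited and −1.60 after scaling. With scaling, 39 members were lower in UH vs UN, where 6.44% of all genes were called lower, and Aurkb, Bub1 and Bub3 were no longer past the fold threshold. In SH vs SN the same 7 genes were lower (median −0.52, 4.76% of all genes). In SN vs UN, Kif20a was called higher (log2 fold change 1.03) and no other member was, where 3.94% of all genes were called higher. In SH vs UH 30 members were higher (median 1.28, 5.4% of all genes), and Ccnb2 went from 0.20 to −0.0041. The contrast (SH − SN) − (UH − UN) was called positive in 25 members, with a median of 1.05, where 4.76% of all genes were called positive. Without regard to calls, it was above 0 in all 43 members and in 9830 of 18909 genes. The 10 members lost there were Ccna2, Ccnb2, Cdc25b, Kif20a, Kif2c, Mki67, Nuf2, Pttg1, Top2a and Tpx2. The difference for Bub3, Foxm1 and Mad2l1 came to 0.23, 0.23 and 0.24 after scaling, which did not pass the adjusted p (0.364, 0.485 and 0.491, limma).

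The promoters of the members were searched for the elements under which G2 and M genes are known to be transcribed. RefSeq windows in GRCm38.p6, from 250 bases before to 50 bases after the transcription start, were matched by symbol for 35 of 43 members, and Spc24, Kif20a, Foxm1, Incenp, Aurkb, Cdc25c, Ccna2 and Tpx2 were not matched. The CHR was searched as TTTGAA or TTCGAA, the CCAAT box as CCAAT and the E2F site as TTTCGCGC, TTTGGCGC, TTTCCCGC or TTTGCCGC, all on both strands. No motif's letters contain those of another. A CHR match was in 28 of 35 members (80.0%), where 21.7% of 27025 genes with a window held one. A CCAAT match was in 28 of 35 members (80.0%) against 41.1% of all genes, and both were in 25 (71.4%) against 9.65%. An E2F match was in 1 of 35 members (2.86%), Cdk1, against 2.60% of all genes. These shares are a description of the windows, and a match is not evidence of binding. Some RefSeq windows, among them those of Kif14, Kif2c, Cdca8 and Mad2l1, did not contain the gene start given by the GENCODE M21 annotation.

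The CHR matches clustered at the start: 25 of 35 members (71.4%) had one beginning within 50 bases of it, against 6.12% of all genes. At least 2 CCAAT matches were in 19 members (54.3%), against 13.3% of all genes. In 7 members (20%) and 1.11% of all genes, CCAAT matches stood 31 to 33 bases apart, a spacing chosen after the windows had been seen. The 7 genes were Aurka, Ccnb1, Ccnb2, Cdk1, Nek2, Spc25 and Ube2c. Both motifs were absent from the windows of Mad2l1, Nuf2, Birc5 and Pttg1. Of the 5 matched genes that fell in SH vs SN, 3 held a CHR and 2 a CCAAT box, and of the 8 matched genes above 0 in that comparison, 7 held each. Among these 5, Mad2l1 and Kif2c had windows without the GENCODE M21 gene start, which lay inside the windows of the 8 genes above 0. Of the 22 other matched members, 18 held a CHR and 19 a CCAAT box. Birc5 and Pttg1, which held neither, were not called in SH vs SN. Whether the matches go with the changes was not tested.

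The 150 bases before the start are shown for 8 members, 5′ to 3′ on the gene's strand. They set some that fell in both hypoxia comparisons beside some that fell in unsorted cells and were above 0 in SH vs SN. Capitals mark CHR, CCAAT and, in Cdk1, E2F matches on either strand (ATTGG is CCAAT read on the other strand). Kif2c, which also fell in both and held a CHR but no CCAAT match, is not shown, and Foxm1 and Ccna2 had no matched window. The genes shown that fell in both were Mad2l1 (chr6:66535071-66535220, plus strand), Nuf2 (chr1:169531465-169531614, minus strand), Ccnb2 (chr9:70421555-70421704, minus strand) and Cdk1 (chr10:69352913-69353062, minus strand).
Mad2l1: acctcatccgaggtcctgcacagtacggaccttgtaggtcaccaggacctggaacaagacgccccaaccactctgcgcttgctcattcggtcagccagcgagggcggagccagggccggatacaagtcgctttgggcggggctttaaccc
Nuf2: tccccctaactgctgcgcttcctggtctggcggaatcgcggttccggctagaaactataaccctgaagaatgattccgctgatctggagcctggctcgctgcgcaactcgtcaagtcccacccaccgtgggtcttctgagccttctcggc
Ccnb2: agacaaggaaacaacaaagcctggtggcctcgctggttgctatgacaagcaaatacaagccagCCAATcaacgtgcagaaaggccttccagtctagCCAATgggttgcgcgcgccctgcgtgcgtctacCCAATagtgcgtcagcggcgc
Cdk1: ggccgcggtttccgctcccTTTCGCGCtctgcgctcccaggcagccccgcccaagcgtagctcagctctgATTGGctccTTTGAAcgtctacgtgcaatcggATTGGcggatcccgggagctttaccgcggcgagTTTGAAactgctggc
Also called lower in UH vs UN and above 0 in SH vs SN, but not shown, were Cdc25c, Cenpe, Ndc80 and Spc25. Spc25 held both motifs, Cenpe only a CCAAT match and Ndc80 only a CHR match, and Cdc25c had no matched window. The genes of this kind that are shown were Cdc20 (chr4:118437344-118437493, minus strand), Aurka (chr2:172370571-172370720, minus strand), Kif18b (chr11:102925125-102925274, minus strand) and Cenpf (chr1:189688087-189688236, minus strand).
Cdc20: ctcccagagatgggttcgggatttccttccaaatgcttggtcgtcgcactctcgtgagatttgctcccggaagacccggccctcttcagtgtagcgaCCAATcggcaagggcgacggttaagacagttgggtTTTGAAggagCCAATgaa
Aurka: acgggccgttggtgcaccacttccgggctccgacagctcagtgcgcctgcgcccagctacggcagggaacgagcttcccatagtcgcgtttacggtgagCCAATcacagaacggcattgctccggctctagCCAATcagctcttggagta
Kif18b: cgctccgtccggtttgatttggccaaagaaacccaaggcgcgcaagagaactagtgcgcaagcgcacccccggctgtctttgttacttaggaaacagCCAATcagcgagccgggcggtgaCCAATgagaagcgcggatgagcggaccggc
Cenpf: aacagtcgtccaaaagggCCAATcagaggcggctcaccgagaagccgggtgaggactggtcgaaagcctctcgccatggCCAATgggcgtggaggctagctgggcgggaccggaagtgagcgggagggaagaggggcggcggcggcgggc
Mad2l1 and Nuf2, which were among the members with the largest falls in both comparisons, showed no capitals. The GENCODE M21 annotation starts Mad2l1 at base 66535390, after the end of its RefSeq window, so the bases next to that start were not searched. Ccnb2 and Cdk1 had 3 and 5 matches in this stretch, and Cdc20, Aurka, Kif18b and Cenpf had 3, 2, 2 and 2. Further CHR matches lay just after the start in Ccnb2, Cenpf, Kif18b and Aurka, beginning at bases 5, 3, 4 and 33.

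Other genes of mitosis, a list of 111 that were not members, were examined in the same way. Of 110 tested, 78 fell and 0 rose in UH vs UN (median −1.46), and 17 fell and 0 rose in SH vs SN (median −0.49), against the 11.8% and 5.0% of all genes called lower. In (SH − SN) − (UH − UN), 48 were called positive and 0 negative, with a median of 0.75 (limma), against 8.08% and 2.18% of all genes. After median-of-ratios scaling, 61 fell and 1 rose in UH vs UN, 17 fell in SH vs SN, and 34 were called positive in the contrast (median 0.45). Without UN1, 77 fell in UH vs UN, and without SH3, 17 fell in SH vs SN, with 48 called positive in the contrast each time. Trip13, the ATPase that recycles MAD2, fell most in both, by 2.71 and by 1.89 on the log2 scale (adjusted p = 7.28e-08 and adjusted p = 1.71e-06, limma). It was at 24.8, 25.1 and 26.2 TPM in UN, 3.14, 2.88 and 3.08 TPM in UH, 19.6, 22.2 and 16.7 TPM in SN and 3.92, 4.30 and 5.35 TPM in SH cells. Like Mad2l1, it was low in every hypoxic library.

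Next in UH vs UN were Melk, a kinase of the G2 and M phases, and the condensin subunit Smc2, at −2.50 and −2.47, and next in SH vs SN were the kinetochore gene Pmf1 and the kinase Pbk, at −1.75 and −1.71. In the contrast of the 2 responses Hmmr (2.35), Spag5 (2.26) and Ckap2l (2.16), which encode spindle proteins, were greatest. Hmmr was at 35.4, 33.7 and 33.3 TPM in UN, 4.44, 6.63 and 8.24 TPM in UH, 29.8, 24.2 and 22.1 TPM in SN and 26.2, 28.7 and 25.2 TPM in SH cells, so only the UH libraries were low. In SH vs UH 47 of these genes were called higher and 0 lower, led by Psrc1 (2.80), Gtse1 (2.77) and Zwilch (2.49). In SN vs UN 3 were called lower, Cdc26 (−1.35), Cenpp (−1.28) and Melk (−1.13), and 0 higher, against 7.57% and 3.2% of all genes. This was 3 lower and 3 higher after median-of-ratios scaling, and 4 lower and 3 higher without UN1.

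Genes that control the mitotic program were examined as 18 members of the MuvB, B-MYB, DREAM and E2F group. Of these, 8 fell in UH vs UN and 5 fell in sorted cells, with 0 rising in either (limma). Over all genes 11.8% and 5.0% were called lower, and 5.46% and 7.47% higher. After median-of-ratios scaling 6 and 4 fell, against 6.44% and 4.76% of all genes. Without UN1, 7 fell in UH vs UN, and without SH3, 4 fell and 1 rose in sorted cells. Mybl2 (B-MYB) was at 36.8, 33.7 and 29.8 TPM in UN, 6.71, 8.92 and 7.91 TPM in UH, 35.3, 39.7 and 29.0 TPM in SN and 8.59, 6.97 and 11.6 TPM in SH cells, so both hypoxic groups lay far below both normoxic groups. Its log2 fold changes were −1.96 and −1.84 (adjusted p = 5.08e-06 and adjusted p = 1.37e-05, limma), and Rbl1 (p107) was close to it in UH vs UN, at −1.95. Mybl2 and Foxm1 were both low in the SH libraries. In SH vs SN 34 of 43 members had a log2 fold change below 0, and 9, with Cdc20, Aurka and Kif18b among them, were above 0. Over all 18909 genes, 8776 were below 0 and 9961 above. Any part of these regulators in the levels of the members was not tested. The pocket protein gene Rb1 had log2 fold changes of 0.62 and 0.87, both under the fold threshold. E2f8, an E2F repressor, was called higher in SN vs UN (1.22, adjusted p = 0.000700, limma), with a log2 fold change of 1.33 without UN1.

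The CDK inhibitor Cdkn1a (p21) was called higher by 3.52 on the log2 scale in UH than in UN, by 1.85 in SH than in SN and by 2.02 in SN than in UN. It was at 86.5, 32.6 and 36.6 TPM in UN, 530, 545 and 574 TPM in UH, 181, 192 and 211 TPM in SN and 776, 790 and 572 TPM in SH cells. Its level was at least as high in SH1 and SH2 as in the UH libraries, and 37 members were called higher in SH than in UH. Any part of Cdkn1a in the levels of the members was not tested. Of 12 CDK inhibitors and growth arrest genes, 3 rose and 3 fell in UH vs UN, where 5.46% of all genes were called higher and 11.8% lower. Without UN1, 2 rose and 5 fell. In SH vs SN 3 rose and 0 fell, where 7.47% of all genes were called higher and 5.0% lower. Of 8 hypoxia check genes, 7 rose in each hypoxia comparison, with medians of 3.35 and 2.83.

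DNA replication genes, which act in S phase, were set beside the members. Of 39, 35 fell in UH vs UN (median −1.95) and 28 in SH vs SN (median −1.49), with 0 rising in either (limma). Beside them, 42 and 7 of the 43 members fell, with medians of −1.92 and −0.53, where 11.8% and 5.0% of all genes were called lower. After median-of-ratios scaling 28 replication genes fell in each comparison, with medians of −1.62 and −1.48. Without UN1, 34 fell in UH vs UN and 5 were called positive in the contrast. Without SH3, 29 fell in SH vs SN and 4 were called positive in the contrast. In (SH − SN) − (UH − UN), 6 replication genes (15.4%) were called positive (median 0.45), and 35 members (median 1.39). Over all genes 8.08% were called positive (median 0.25). After median-of-ratios scaling these were 1 replication gene (2.56%), with 1 called negative (median 0.15), and 25 members (median 1.05). Over all genes 4.76% were then called positive and 4.14% negative (median 0.02). The difference between the lists was not tested.

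**Figure D4:**
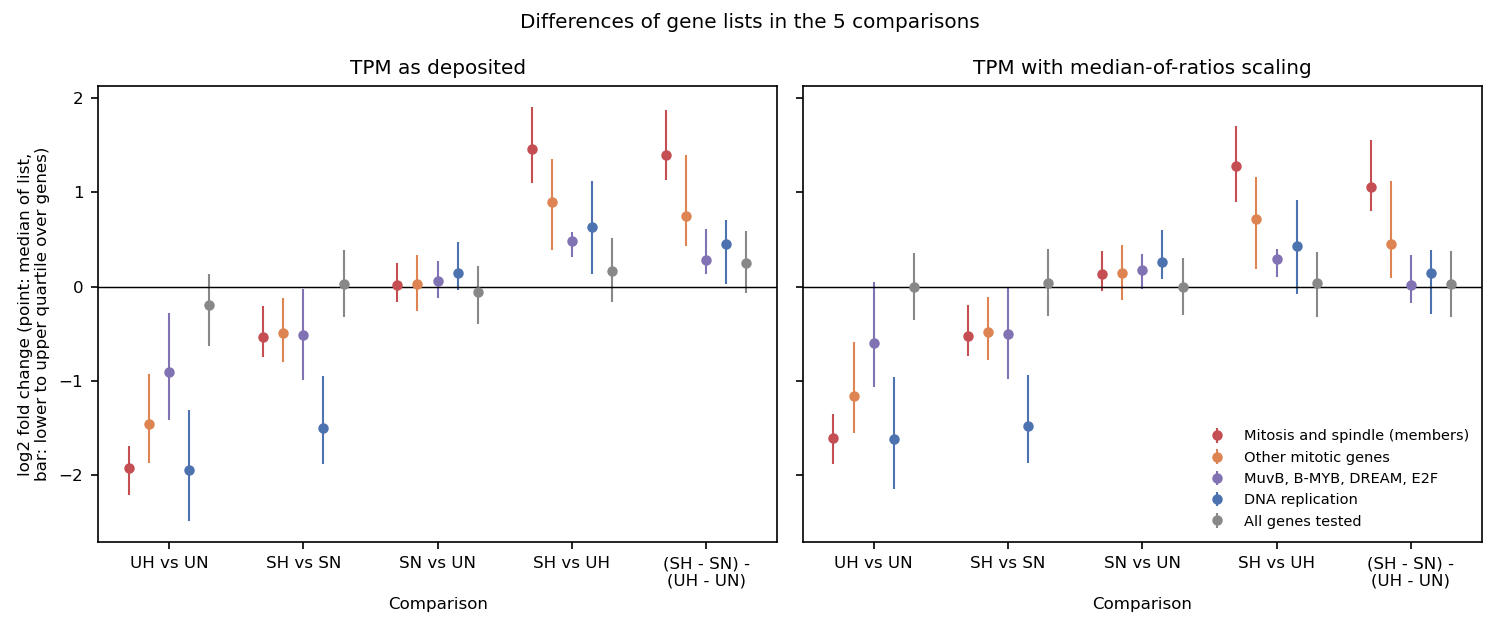
Median log2 fold change (points) with lower and upper quartiles over genes (bars) of the members, the other mitotic genes, their regulators, DNA replication genes and all genes tested, in 5 comparisons, with TPM as deposited (left) and after median-of-ratios scaling (right). Members and replication genes are near −1.9 in UH vs UN as deposited and near −0.5 and −1.5 in SH vs SN, and the members keep the highest median in SH vs UH and in the contrast on both sides.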

How the data were processed

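RNA from 12 libraries of BN1-Tie2-EGFP cells (UN, UH, SN and SH, 3 each) was sequenced as stranded, polyadenylated libraries on an AVITI instrument. The authors processed the reads with nf-core/rnaseq 3.12.0 (Salmon) on mm10, per the submitters' processing notes, and deposited TPM per gene. The annotation release is not given in the sources used here. TPM are relative within a library, so a large change in a few genes shifts all others, and they keep no depth. Reads of close paralogs may be divided between genes by the quantification.

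Members were taken by gene name. The members and gene lists were chosen with earlier results of these data known. Values were tested on log2(TPM + 1) with limma 3.58.1 (R 4.3.3), which understates the changes of low genes, over 18909 genes (mean TPM over all libraries 0.1 or more), in 1 model of 4 group means over all 12 libraries with trended empirical Bayes moderation. Called genes had a Benjamini-Hochberg adjusted p under 0.05 over all genes tested and a fold difference above 2. UH vs UN and SN vs UN share the UN libraries, and SH vs SN and SH vs UH the SH libraries. The procedure was tested on simulated data.

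Values per library are given for the members with the greatest change in each role, those against the common direction, and Bub3, Mki67, Top2a, Cdk1, Ccnb1 and Foxm1. Of other mitotic genes, the 3 called genes with the greatest change per direction and comparison are named. Alternatives were other scalings (median-of-ratios, quantile, TPM without mitochondrially encoded transcripts), pseudocount, filters, moderation, only the compared groups, each library left out and a replicate block. GENCODE M21 (GRCm38) held 98.8% of the identifiers. Promoter windows came from RefSeq.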

Additional observations from a re-analysis of the deposited data

Results flagged for a closer look

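The response to hypoxia differed between sorted and unsorted cells in 35 of the 43 members, by the limma contrast (SH − SN) − (UH − UN), where 8.08% of all genes were called positive and 2.18% negative. After median-of-ratios scaling this was 25 members, against 4.76% of all genes called positive. The greatest log2 differences were 2.86 for Cdc20, 2.59 for Cenpf and 2.57 for Kif18b, and in each of these genes the 3 UH libraries lay below UN while the 3 SH libraries lay above SN. Most members did not rise in sorted cells: in SH vs SN 34 of 43 were below 0 and 9 above, against 8776 and 9961 of all 18909 genes. The rise of Cenpf there did not pass the adjusted p (limma). Summed fibroblast and mural markers, at 1177 to 5165 TPM in UN, 4854 to 7136 TPM in UH, 205 to 214 TPM in SN and 53.7 to 71.1 TPM in SH cells, are given beside the contrast. Of 9 such markers tested, 3 were called higher and 3 lower after hypoxia in unsorted cells. In sorted cells 1 was called higher and 3 lower, and Col1a1 had the highest log2 fold change both times (2.25 and 1.57). Without UN1, 3 were called higher and 1 lower in unsorted cells, and Col3a1 was highest (3.12). In the contrast 0 of these markers were called positive and 2 negative, and without UN1 1 positive and 6 negative. Their part in the result was not tested.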

How the results depend on the processing

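Scaling moved sizes most. The members' median log2 fold change in UH vs UN, −1.92 as reported, was −1.60 after median-of-ratios scaling, −1.66 after quantile normalization and −2.10 with a pseudocount of 0.1. In SH vs SN quantile normalization gave a median of −0.41 and called 1 member higher, Kif18b, and Cdk1 was no longer called lower (−0.90), as without SN1 (−0.86). Median-of-ratios scaling called 1 member higher in SN vs UN, Kif20a. The median in SH vs UH was 1.28 with median-of-ratios scaling and 1.34 with quantile normalization, and that of (SH − SN) − (UH − UN) was 1.05 and 1.20, and 1.52 with a pseudocount of 0.1. Ccnb1 in SN vs UN changed sign under median-of-ratios scaling, to 0.0073 from −0.11, with neither passing the test. Leaving out 1 library at a time gave 42 to 43 members lower in UH vs UN (median −2.01 to −1.85), 6 to 9 lower in SH vs SN (−0.59 to −0.45), 0 called in SN vs UN (−0.06 to 0.13), 34 to 37 higher in SH vs UH (1.38 to 1.55) and 32 to 36 called positive in the contrast (1.29 to 1.44). The replicate block called 42, 7, 0, 37 and 35 members in the 5 comparisons, all of them shared with the fit without it. Same-numbered libraries of the groups did not visibly deviate together (r from −0.0631 to 0.141). The labels do not say whether they were paired, and these values cannot decide it. With TPM alone the depth behind a value is unknown, and with 3 libraries a group an exact permutation test cannot go below p = 0.1.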

Other observations

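Some growth arrest genes and regulators had values beside the mitotic genes. Cdkn1b (p27) rose in both hypoxia comparisons, with log2 fold changes of 1.05 in unsorted and 1.03 in sorted cells (adjusted p = 0.00125 and adjusted p = 0.00180, limma), and so did Ccng2, cyclin G2, with 2.15 and 2.08. Lin9, a MuvB subunit, fell in UH vs UN (−1.67) and was at −0.96 in SH vs SN, and Rbl1 (p107) fell in both (−1.95 and −1.21). E2f7 and E2f8, which encode repressors of the E2F family, were called higher in SH vs UH (1.49 and 1.39).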
